A study of Mus musculus with 4 samples.

Results

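Cycling growth plate chondrocytes are the dividing cartilage cells of the plate that lengthens a long bone. They were selected on measured UMIs (unique molecular identifiers, which count captured RNA molecules) in 3 single-cell libraries of Td+ endosteal bone marrow. A cell entered the chondrocyte gate with 200 to 6000 genes, at most 5% mitochondrial UMIs, more Col2a1 than Col1a1 and than Cxcl12 UMIs, at least 100 Col2a1 UMIs per 10000, at least 1 Sox9 UMI and 0 Ptprc UMIs. Within that gate, a cell was called cycling at 3 or more UMIs of Mki67 plus Top2a, and non-cycling at 0 UMIs of both. This gave 248 cycling cells of 3038 gate cells, 17941 cells within the quality limits and 18678 barcodes. Cycling cells numbered 17 at 1 month, 195 at 1.5 months and 36 at 3 months, against 200, 1550 and 691 non-cycling cells. Gate cells with 1 or 2 UMIs, which numbered 121, 183 and 45, belong to neither group.

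All libraries came from male Col2:Td mice, in which Col2-Cre switches on the tdTomato reporter (Td) in cells of the Col2 lineage, under the strain label B6SJL/F1. The 1 month library pooled 2 mice, and the 1.5, 3 and 16 month libraries pooled 3 mice each, with no treatment or other allele named in the labels. Epiphyses were cut off before digestion and cells were sorted for high Td signal. Each age is 1 library, so age, batch, mice, sort and depth cannot be told apart. Because cycling and non-cycling cells were cut from the same cells on 2 genes and no age has a replicate library, no test was run and no p-value is given.

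In the growth plate, resting chondrocytes feed columns of flat proliferating cells, which leave the cycle as prehypertrophic cells and enlarge as hypertrophic cells before bone replaces them. Parathyroid hormone-related protein (Pthlh) from the resting zone and Indian hedgehog (Ihh) from the prehypertrophic zone form the loop that sets where division stops. A dividing cell copies its DNA in S phase, with licensing factors, nucleotide synthesis and new histones, and then builds the spindle and kinetochores of mitosis in G2/M. Mki67 encodes a protein of the chromosome surface and Top2a the topoisomerase that untangles replicated DNA, and both are made mainly from S phase to mitosis.

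The label held for cartilage. Every cycling cell carried Col2a1, with 294 to 838 UMIs per cell at 1 month, 207 to 1447 at 1.5 months and 101 to 739 at 3 months. Col2a1 and Sox9 are genes of the gate, and their levels are a description only. The gate did not use Acan, Col9a1, Col9a2, Col11a1, Hapln1 and Matn3, whose summed level in cycling cells was 15256 CPM (UMIs per 1000000 UMIs) at 1 month, 23570 at 1.5 months and 17999.5 at 3 months. The lowest single cycling cell held 0.408%, 0.888% and 0.753% of its UMIs in these 6 genes. The reporter was found in 17 of 17, 195 of 195 and 36 of 36 cycling cells. Prg4, the lubricin of articular cartilage, was at 0 UMIs in the 17 cycling cells of 1 month, and at most at 1 UMI per cycling cell at 1.5 and 3 months. The gate itself holds no gene that sets growth plate apart from other cartilage.

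The 1 month library stood apart. The 9 neutrophil lineage markers took 0.920% to 1.24% of the UMIs of each cycling cell there, and a median of 1.09% in non-cycling cells, against medians of 0.0220% and 0.159% in cycling cells at 1.5 and 3 months. Of the 17 cycling cells of 1 month, 2 carried hemoglobin RNA at over 1% of UMIs, the highest at 28.7%. At 1.5 months 1 cycling cell held 14.1% neutrophil lineage UMIs, and at 3 months 1 held 18.97%, while the highest erythroid share there was 2.63%. Cells in which blood markers exceeded 3 times the library median numbered 2 of 17, 3 of 195 and 3 of 36 among cycling cells. Among non-cycling cells they numbered 1 of 200, 7 of 1550 and 6 of 691, a smaller share in each library. Whether their Mki67 and Top2a UMIs came from chondrocytes was not tested. With these cells left out, 320 of the 339 genes called higher and 62 of the 77 called lower below were called again. The 5 endothelial markers summed to 84.5, 4.61 and 7.03 CPM in cycling and 11.1, 2.69 and 9.45 CPM in non-cycling cells, with Cdh5 and Flt1 at 0 in cycling cells at 1.5 months and Emcn, Kdr and Flt1 at 0 in cycling cells at 3 months. The 5 Cxcl12 stromal markers summed to 325, 622 and 65.6 CPM in cycling and 58.1, 632 and 133 CPM in non-cycling cells. The endothelial and stromal lists were thus higher in cycling cells at 1 month, and their part in the ratios there was not tested. The 6 osteoblast markers, Ibsp among them, summed to 3754, 4403 and 3644 CPM in cycling and 5014, 5722 and 9482 CPM in non-cycling cells. At 1.5 months the highest single cell held 7.02% osteoblast UMIs among cycling and 13.1% among non-cycling cells. The part of osteoblast RNA in the ratios was not tested. Libraries shared 30 to 61 barcodes among these 3 ages. Between 1 and 1.5 months, 5 cycling barcodes, counted in both directions, also occurred among cells within the quality limits of the other library.

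Cycling cells made up 5.03% (2.96 to 7.93) of the chondrocyte gate at 1 month, 10.1% (8.80 to 11.5) at 1.5 months and 4.66% (3.29 to 6.40) at 3 months, with exact 95% binomial intervals (Clopper-Pearson) in parentheses. At these unequal depths the 1.5 month interval lies above both others, which overlap. All intervals here and below cover counting error only. Cycling cells were also deeper, with a median of 18573 UMIs against 11660.5 in non-cycling cells at 1 month, 19519 against 15040.5 at 1.5 months and 11463 against 8610 at 3 months. A minimum number of UMIs favours deep cells. With each gate cell thinned to 5000 UMIs, the share at 3 or more UMIs was 2.37% (1.03 to 4.61), 5.16% (4.20 to 6.26) and 3.17% (2.02 to 4.72). The thinned 1.5 month interval overlapped both others, while its share stayed the highest. Thinning left only 8, 96 and 23 cells at this limit, so the overlap does not show that the ages were alike. A difference between ages at equal depth was not tested. In Cxcl12 stromal cells of the same libraries, thinned alike, the share was 1.63% (0.533 to 3.77), 0.479% (0.156 to 1.11) and 1.46% (0.303 to 4.22). The gate exceeded the stromal cells beyond these intervals at 1.5 months, and the intervals overlapped at 1 and 3 months. Gate cells had a median of 12862, 15709.5 and 8720 UMIs before thinning and stromal cells 7316, 6075 and 4317, and 0, 67 and 46 gate cells and 7, 403 and 438 stromal cells were too shallow to enter.

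A single UMI did not separate the populations outside 1.5 months. After thinning, 18.6% (14.6 to 23.2) of gate cells of 1 month held at least 1 UMI of Mki67 plus Top2a, against 19.9% (15.6 to 24.9) of stromal cells, and at 3 months the shares were 8.68% (6.73 to 10.97) and 9.27% (5.67 to 14.1). These gate shares were at the level of the stromal cells and are not read as cycling. The stromal cells were not shown to be outside the cycle. Before thinning, 9 of 313 and 8 of 643 of them held 3 or more UMIs at 1 and 3 months. At 1.5 months the gate held 13.1% (11.6 to 14.7) and stromal cells 4.12% (3.00 to 5.51). Without thinning, the gate shares were 40.8%, 19.6% and 10.5%, and the stromal shares 27.2%, 4.84% and 6.07%. The 16 month library held 4 gate cells, of which 0 were cycling, so a share there could not be measured.

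The rule rests on 3 UMIs, and other genes of the cycle can be read on either side of it. The G2/M list, 52 genes of late cycle that include neither Mki67 nor Top2a, summed to 758 CPM in 1.5 month cells with 0 UMIs, 1339 with 1, 2884 with 2, 5285 with 3, 4540.02 with 4 and 9198 with 5 or more. The 27 cells of 1.5 months just outside the rule, at 2 UMIs, thus lay above the cells at 0, and the 18 just inside lay below those at 5 or more. At 1 month and 3 months the cells with exactly 3 UMIs numbered 1 and 3, and their G2/M level, at 1140.5 and 2058 CPM, was below that of the 15 and 8 cells with 2 UMIs, at 2409 and 3913 CPM. Most members were far from the limit, with a median of 8, 9 and 8 UMIs and 2, 34 and 4 cells at 3 or 4 UMIs. Both rule genes were present in 94.1%, 92.3% and 91.7% of members.

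**Figure D1:**
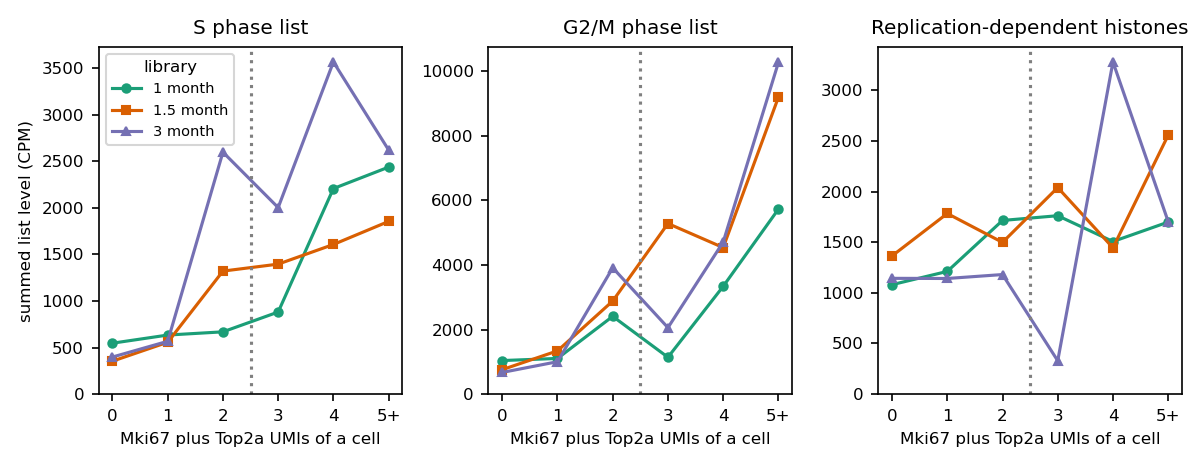
Summed level in CPM of the S phase list, the G2/M phase list and the replication-dependent histones (vertical axes) in gate cells grouped by their Mki67 plus Top2a UMIs (horizontal axis), with 1 line for each library. The G2/M level of the 1.5 month cells passes from 2884 to 5285 CPM at the limit of 3 UMIs, and the points at 3 and 4 UMIs rest on 1 to 3 cells at 1 and 3 months.

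UMIs were summed over the cycling and over the non-cycling cells of each library, and a gene was called when its CPM differed by 1.5-fold or more in the same direction in each of the 3 libraries. Among 4608 genes with a mean level of at least 20 CPM, genes of the rule left out, 339 were called higher in cycling cells, which is 7.36% of the genes counted, and 77 were called lower, which is 1.67%. The contrast is the one that chose the cells, and a gene high in cycling cells alone passes the level filter more easily, so these counts describe what travels with Mki67 and Top2a. The shares of 7.36% and 1.67% stand beside each count below of list members called higher or lower in cycling cells. The median log2 ratio over all genes counted was 0.06. Ratios below are the mean of the 3 log2 ratios of cycling over non-cycling CPM ± SD (n = 3 libraries), and intervals of CPM are exact 95% Poisson intervals.

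The highest ratio among the named genes belonged to Pbk, a mitotic kinase (chromosome 14, 65805837 to 65817822 of GRCm38). It stood at 141 (103 to 188) CPM in cycling against 1.59 (0.434 to 4.08) in non-cycling cells at 1 month, 217 (202 to 233) against 2.61 (1.98 to 3.36) at 1.5 months and 300.1 (250.4 to 357) against 0.994 (0.365 to 2.16) at 3 months. The intervals of the groups do not meet in any of these libraries, and the mean log2 ratio was 6.94 ± 1.03. Pbk was seen in 14 of 17, 169 of 195 and 32 of 36 cycling cells, and in 4 of 200, 49 of 1550 and 6 of 691 non-cycling cells. Nuf2, a kinetochore subunit, reached 46.9, 55.5 and 82.1 CPM in cycling cells against 1.19, 1.19 and 0.166 CPM. Hmmr, a spindle protein, reached 96.98, 56.6 and 91.4 CPM against 3.19, 0.927 and 0.331 CPM. Esco2, Prc1, Cenpe, Nusap1, Aurkb, Spc25, Cdk1, Ccna2, 2810417H13Rik (Pclaf), Sgol1, Cenpf and Ube2c filled the rest of the 15 largest, with mean log2 ratios from 5.29 to 6.26, and all are genes of DNA replication or of the dividing chromosome.

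S phase genes were higher in cycling cells in each library. Of 43 genes on the list 23 passed the level filter, and 22 of these were called higher and 0 lower, with a median log2 ratio of 2.99 and medians of 2.60, 3.03 and 3.30 at 1, 1.5 and 3 months. The 20 members under the filter had mean log2 ratios from 0.78 (Casp8ap2) to 5.62 (Exo1). The summed level of all 43 genes was 2331 CPM in cycling against 547 CPM in non-cycling cells at 1 month, 1797 against 354 at 1.5 months and 2600.2 against 398 at 3 months. Pcna, the sliding clamp of DNA polymerase (chromosome 2, 132249162 to 132253314), stood at 122 (86.8 to 167) CPM against 31.1 (24.6 to 38.8), 99.4 (89.5 to 110.2) against 27.8 (25.7 to 30.1) and 225 (182 to 275) against 41.1 (36.1 to 46.5), a log2 ratio of 2.09 ± 0.32. Its groups were clear of each other at each age. The exception on the list was Blm, the Bloom helicase, at 1.09 ± 0.81, which missed the call at 3 months.

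Among the genes that prepare and fire origins, 9 of 17 passed the filter and all 9 were called higher. The helicase subunits Mcm2, Mcm3, Mcm5, Mcm6 and Mcm7 lay between 2.27 and 3.16 on the log2 scale. Gmnn, which blocks a second licensing, was at 3.46 ± 0.64. Of the 8 genes of deoxynucleotide synthesis 7 passed and 7 were called higher, with a median of 3.38. Rrm2, the regulated subunit of ribonucleotide reductase, was at 122, 197 and 253 CPM in cycling and 17.5, 5.61 and 3.65 CPM in non-cycling cells. Thymidine kinase Tk1 was at 5.14 ± 0.90 and thymidylate synthase Tyms at 3.38 ± 0.36.

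The G2/M list had larger ratios than the S phase list in each library, in cells chosen on Mki67 and Top2a. Across cycling cells, Mki67 plus Top2a had Spearman correlations with the G2/M list of 0.71, 0.51 and 0.64 at 1, 1.5 and 3 months. With the S phase list the correlations were 0.46, 0.02 and -0.15. The part of the rule in the order of the lists was not tested. Of 52 G2/M genes 38 passed the filter, 37 were called higher and 0 lower. The median log2 ratio was 4.68, with 3.08, 4.89 and 5.46 by library. The 14 members under the filter lay between 3.43 (G2e3) and 6.66 (Cdc25c). The exception was Cbx5, a heterochromatin protein, at 0.78 ± 0.39. The kinase Cdk1 (chromosome 10, 69335146 to 69352938), which drives entry into mitosis, stood at 163 (121 to 213) CPM, 301 (284 to 319.5) and 295 (246 to 352) in cycling cells, against 7.17 (4.25 to 11.3), 7.60 (6.50 to 8.82) and 2.98 (1.77 to 4.71). Kinetochore and spindle checkpoint genes were called in 14 of 14 members that passed the filter out of 18, at a median of 5.14, and mitotic kinesins in 3 of 3 out of 10, at 5.27, beside 7.36% of all genes counted. In non-cycling cells these lists summed to 119, 71.8 and 39.4 CPM and to 18.3, 8.04 and 7.96 CPM at 1, 1.5 and 3 months. Their members thus passed the filter mainly through the cycling sums, which makes a call nearly certain, so these counts are a description only. Birc5, the survivin subunit of the chromosomal passenger complex, was at 5.21 ± 1.71. Ube2c, the ubiquitin-conjugating enzyme that acts with the anaphase-promoting complex, was at 5.29 ± 2.03.

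Ratios were smallest at 1 month and largest at 3 months for the medians of the S phase, G2/M, licensing, nucleotide, kinetochore and kinesin lists. The summed level of the G2/M list moved with this order in both groups, and that of the S phase list, given above, in neither. The G2/M list stood at 1039 CPM at 1 month, 758 at 1.5 months and 672 at 3 months in non-cycling cells, and at 5315, 8508 and 9390.1 CPM in cycling cells. The part of free RNA in the 1 month values was not tested.

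**Figure D2:**
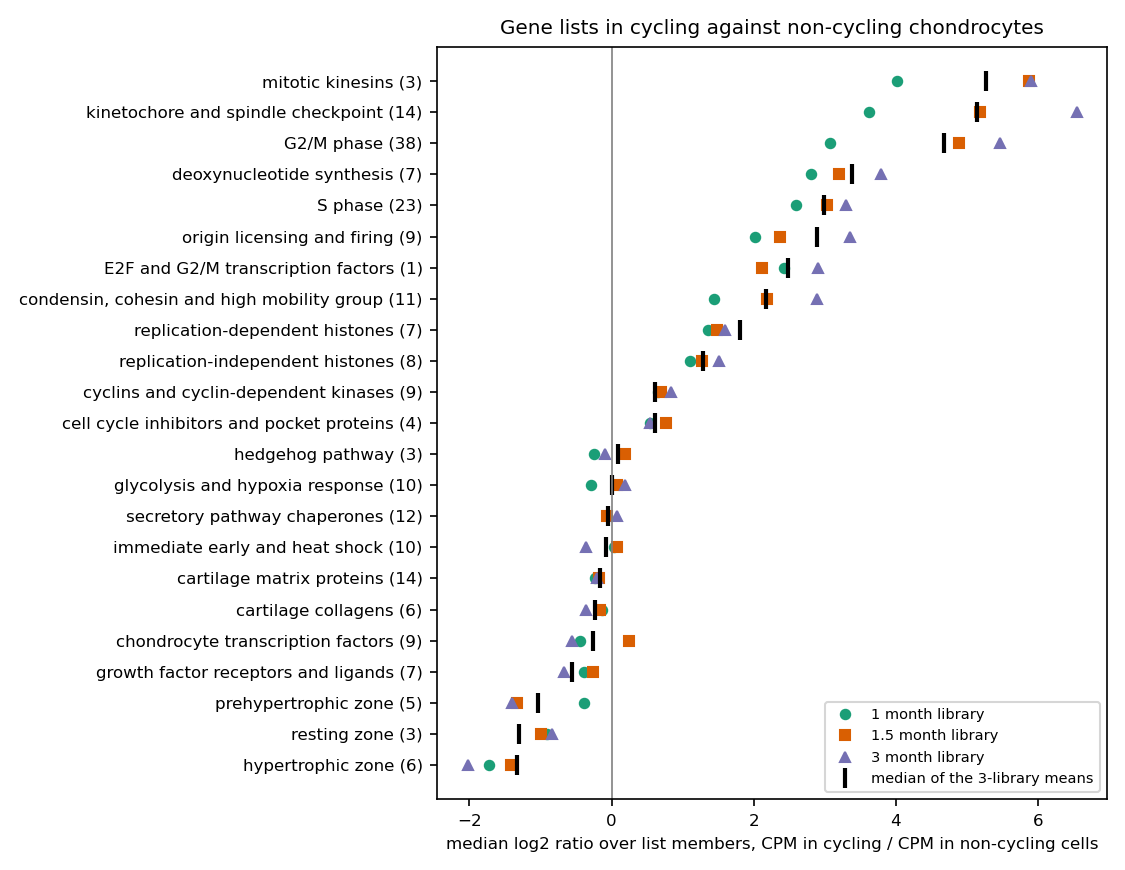
Median log2 ratio of CPM in cycling over non-cycling cells (horizontal axis) for each gene list, with its number of members counted in parentheses, in the 1, 1.5 and 3 month libraries (points) and over the means of the 3 libraries (bars). Kinesin, kinetochore and G2/M lists lie highest, at 4.68 to 5.27, the cartilage lists near 0, and the hypertrophic, resting and prehypertrophic lists below 0.

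Replication-dependent histones are made in S phase, and their mRNAs end for the most part in a stem loop and not in a poly(A) tail, which limits what a poly(A)-primed library sees. Of 69 such genes 7 passed the filter and 5 were called higher, beside 7.36% of all genes counted. Hist1h2ap (chromosome 13, 21833026 to 21833507), an H2A gene, stood at 359.7 (297 to 432) CPM against 10.8 (7.09 to 15.6) at 1 month, 952 (921 to 984) against 30.5 (28.2 to 32.8) at 1.5 months and 159 (124 to 202) against 3.48 (2.15 to 5.32) at 3 months. Its UMIs were seen in 14 of 17, 173 of 195 and 22 of 36 cycling cells. The log2 ratio, 5.17 ± 0.29, varied less between libraries than the level did. Linker histone Hist1h1b was at 4.42 ± 0.84, and Hist1h1e, Hist3h2a and Hist1h4i were at 1.86 ± 0.69, 1.81 ± 0.48 and 1.19 ± 0.25. Hist1h1c and Hist1h2bc were not called, at 0.11 ± 0.39 and -0.41 ± 0.29. Members of these clusters are close copies, and the counting can split reads among them.

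Variant histones were called higher in 5 of 8 members counted, beside 7.36% of all genes counted. H2afz was at 2158, 2662 and 3962 CPM in cycling and 552, 376 and 327 CPM in non-cycling cells, a ratio of 2.80 ± 0.82, and H2afx was at 3.48 ± 1.14. H3f3a, H3f3b and H1f0 were not called, at 0.61, 0.45 and 0.43. Of the condensin, cohesin and high mobility group genes 9 of 11 counted were called higher, with Smc2 at 4.62 ± 0.65, Smc4 at 2.92 ± 0.18 and Hmgb2 at 3.26 ± 0.63.

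Cyclins divided into those of the division itself and those upstream. Ccna2, Ccnb1 and Ccnb2 were called higher, at 5.40 ± 1.82, 4.45 ± 1.60 and 4.68 ± 2.16. The D cyclins, which answer to growth signals, did not pass the call, with Ccnd1 at 62.6, 49.04 and 46.9 CPM in cycling against 74.5, 43.5 and 47.7 CPM in non-cycling cells. Cdk4 and Cdk6, their partners, were at 0.60 ± 0.15 and 0.62 ± 0.24, above 0 in each library but not past 1.5-fold in each. Ccne1 and Ccne2 stayed under the level filter.

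Inhibitors of the cycle went both ways. Cdkn2c and Cdkn2d, which bind Cdk4 and Cdk6, were called higher, at 2.42 ± 0.17 and 1.56 ± 0.41. Cdkn2c stood at 100.1, 187 and 225 CPM in cycling cells against 16.7, 34.7 and 47.4 CPM. Cdkn1c (chromosome 7, 143458339 to 143461050), the p57 inhibitor of chondrocytes that leave the cycle, was called lower, with 257 (204 to 318) CPM against 502 (474 to 530.2), 449.8 (428 to 472) against 1558 (1542 to 1575) and 392 (334 to 456) against 805 (782 to 828), a log2 ratio of -1.26 ± 0.46. It was present in 13 of 17, 172 of 195 and 19 of 36 cycling cells, so its RNA was lower but not missing. Cdkn1a, the p21 inhibitor, was at -0.33 ± 0.24 and not called. Of 12 E2F and G2/M factors E2f1 alone passed the filter, and it was called higher at 2.49 ± 0.40.

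Promoters of the phase lists carry letters known from cell cycle control, and the windows of genes with large ratios show them. The windows run from 250 bases before to 50 after the RefSeq start on GRCm38.p6, and 31 of 43 S phase and 46 of 52 G2/M genes matched a window. The search covered both strands for CCAAT, for the core of the cell cycle genes homology region, TTTGAA, and for an E2F form, either TTTGGCGC or the alternative TTTCGCGC. Shares are of genes with a window, and a gene with more than 1 window counted if any of them held the motif. Of the G2/M genes 76.1% held CCAAT, 67.4% held TTTGAA and 52.2% both, against 41.1%, 20.2% and 7.97% of all 27025 genes with a window. Of the S phase genes 22.6% held an E2F form, against 4.35% of G2/M genes and 0.929% of all. Of the 61 replication-dependent histone genes matched, 85.2% held CCAAT, 45.9% held TTTGAA, 44.3% both and 14.8% an E2F form, so neither the pairing nor the E2F form belonged to a single list. CCAAT was found in 70.97% of S phase genes and TTTGAA in 19.4%. These shares were not tested, and a match is a description and not a site.

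Among genes past the level filter, the G2/M genes with the largest ratios whose window holds both CCAAT and TTTGAA were Hmmr (chr11:40733388-40733687, minus strand), Kif11 (chr19:37376132-37376431, plus strand) and Cdk1 (chr10:69352863-69353162, minus strand). They are printed 5′ to 3′ along the gene, with each match to CCAAT or TTTGAA in capitals, some of which are the motif read from the other strand. The Cdk1 window also holds an E2F form, TTTCGCGC, which is left in lower case. Hmmr holds 5 CCAAT and 1 TTTGAA, Kif11 1 of each, and Cdk1 3 and 2. The first base of the TTTGAA nearest the start lies 8 bases after it in Hmmr. In Kif11 and Cdk1 that base lies 19 and 15 bases before the start.
Hmmr: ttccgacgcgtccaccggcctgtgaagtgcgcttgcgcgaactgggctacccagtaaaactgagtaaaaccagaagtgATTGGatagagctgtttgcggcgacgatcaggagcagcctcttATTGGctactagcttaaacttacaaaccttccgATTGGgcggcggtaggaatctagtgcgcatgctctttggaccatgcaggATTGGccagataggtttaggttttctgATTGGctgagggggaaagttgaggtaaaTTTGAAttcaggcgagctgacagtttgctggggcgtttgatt
Kif11: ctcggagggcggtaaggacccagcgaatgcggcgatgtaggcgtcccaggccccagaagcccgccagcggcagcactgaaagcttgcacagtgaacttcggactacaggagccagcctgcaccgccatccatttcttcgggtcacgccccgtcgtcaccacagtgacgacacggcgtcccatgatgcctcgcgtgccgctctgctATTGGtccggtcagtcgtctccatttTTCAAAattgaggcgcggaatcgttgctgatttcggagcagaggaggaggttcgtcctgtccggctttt
Cdk1: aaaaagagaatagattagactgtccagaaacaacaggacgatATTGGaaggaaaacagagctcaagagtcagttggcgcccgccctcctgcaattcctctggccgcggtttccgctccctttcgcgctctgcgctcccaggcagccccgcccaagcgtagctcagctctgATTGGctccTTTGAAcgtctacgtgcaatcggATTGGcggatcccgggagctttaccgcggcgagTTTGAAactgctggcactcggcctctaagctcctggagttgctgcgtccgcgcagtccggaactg

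Among genes past the filter, the S phase genes with the largest ratios whose window holds an E2F form were Clspn (chr4:126556730-126557029, plus strand), Dtl (chr1:191575495-191575794, minus strand) and Mcm5 (chr8:75109259-75109558, plus strand), shown with that form alone in capitals. Clspn is an adaptor of the replication checkpoint, Dtl the receptor of the ligase that removes Cdt1, and Mcm5 a helicase subunit. In Mcm5 both forms are found and they overlap, and the capitals run through both.
Clspn: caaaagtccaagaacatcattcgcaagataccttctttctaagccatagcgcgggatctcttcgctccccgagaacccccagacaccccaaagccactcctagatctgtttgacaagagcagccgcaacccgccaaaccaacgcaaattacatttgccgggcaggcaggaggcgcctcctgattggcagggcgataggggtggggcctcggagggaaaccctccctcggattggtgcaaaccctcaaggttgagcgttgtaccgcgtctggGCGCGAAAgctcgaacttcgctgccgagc
Dtl: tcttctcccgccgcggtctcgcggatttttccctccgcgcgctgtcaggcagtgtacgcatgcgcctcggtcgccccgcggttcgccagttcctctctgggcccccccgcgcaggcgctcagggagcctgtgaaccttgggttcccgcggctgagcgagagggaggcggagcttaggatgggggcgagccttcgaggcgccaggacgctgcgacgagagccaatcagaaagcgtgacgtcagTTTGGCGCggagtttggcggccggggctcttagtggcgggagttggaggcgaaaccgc
Mcm5: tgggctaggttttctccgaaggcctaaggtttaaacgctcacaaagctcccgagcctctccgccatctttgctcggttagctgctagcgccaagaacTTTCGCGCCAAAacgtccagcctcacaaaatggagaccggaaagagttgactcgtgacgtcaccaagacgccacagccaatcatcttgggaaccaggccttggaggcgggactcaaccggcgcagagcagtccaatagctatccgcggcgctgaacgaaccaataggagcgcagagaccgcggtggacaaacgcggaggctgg

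Cartilage genes differed little between cycling and non-cycling cells. Of 6 cartilage collagens and 14 matrix proteins counted 0 were called higher and 1, Chad, was called lower. The collagen list had a median log2 ratio of -0.24, with -0.13, -0.16 and -0.36 by library, and its members lay between -0.30 (Col11a1) and -0.14 (Col11a2). Acan, the large proteoglycan (chromosome 7, 79053483 to 79115099), stood at 2459 (2289.9 to 2637) CPM against 2585 (2522 to 2648) at 1 month, where the intervals overlap, and at 2923 (2868 to 2978) against 3474 (3449 to 3498) and 2823 (2666 to 2987) against 3161 (3116 to 3206) at 1.5 and 3 months, where they do not. Col9a1 was at 2130.3, 4191 and 2884 CPM against 2523, 4639 and 3712 CPM. The gate genes Col2a1 and Sox9 were at -0.29 ± 0.10 and -0.27 ± 0.11, as a description.

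Matrix proteins ranged from Cilp2 at -1.17 ± 0.95 to Prelp at 0.50 ± 0.38. Chad, a collagen-binding repeat protein, was at 1523, 1333 and 4066 CPM in cycling against 2339.8, 2254 and 7164 CPM in non-cycling cells, -0.73 ± 0.10. Comp, the pentameric matrix protein, was at -0.56 ± 0.22 and did not pass 1.5-fold at 1 month. Prelp was at 485 against 463, 1363 against 887 and 1566 against 895 CPM, so that it differed by 1.5-fold at 1.5 and 3 months and not at 1 month. Hapln1, the link protein, was at -0.42 ± 0.11.

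The medians of the hypertrophic and prehypertrophic lists lay below 0, and some of their genes were called. Of 6 hypertrophic genes counted 3 were called lower and 0 higher, at a median of -1.34, beside 1.67% of all genes counted that were called lower. Col10a1 (chromosome 10, 34389981 to 34397085), the collagen of hypertrophic cartilage, stood at 87.6 (58.2 to 127) CPM against 925 (888 to 964), 337 (319 to 357) against 4173 (4147 to 4199.9) and 366 (311 to 428) against 1912 (1877 to 1947), and its log2 ratio of -3.13 ± 0.66 was the smallest among called genes with at least 50 CPM in the higher group. Much of its level in cycling cells came from single cells, with 27 of 28 UMIs in 1 cell at 1 month and 143 of 156 in 1 cell at 3 months. At 1.5 months 189 of 195 cycling and 1438 of 1550 non-cycling cells held a Col10a1 UMI, and the highest cycling cell held 163 of 1245 UMIs. Ibsp, bone sialoprotein, is also on the osteoblast marker list. It was at -2.58 ± 0.36, with 201 of 252 UMIs of cycling cells at 3 months in 1 cell. Spp1, osteopontin, was at -1.09 ± 0.13. Alpl, the mineralizing phosphatase, was at -1.58 ± 1.04 and not called.

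Mmp13, the collagenase of late hypertrophy, went in opposite directions. It was at 247 against 27.1, 105 against 211 and 32.8 against 115 CPM at 1, 1.5 and 3 months. In the 1 month library 58 of 79 UMIs came from 1 of 17 cells, and without the cells rich in blood markers the log2 ratio there went from 3.19 to 1.45.

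Of 5 prehypertrophic genes 1 was called lower, at a list median of -1.04, beside 1.67% of all genes counted. Ihh (chromosome 1, 74945315 to 74951672) was at 15.6 (5.08 to 36.5) CPM against 30.7 (24.2 to 38.3) at 1 month, on 5 UMIs, with intervals that overlap. It was at 23.3 (18.6 to 28.8) against 203 (198 to 209) at 1.5 months and 21.1 (9.65 to 40.1) against 183 (172 to 194) at 3 months, where the groups stood clear of each other. Pth1r, the receptor of the Pthlh signal, was at 416 against 546, 643 against 1620.2 and 842 against 2219.7 CPM and missed the call at 1 month. Panx3, Sp7 and Mef2c were at -0.77 ± 0.81, -0.95 ± 0.48 and -1.23 ± 0.88.

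The genes of the resting zone list did not share a direction. Sfrp5, a Wnt antagonist, was called lower, at 106 against 202, 8.67 against 39.6 and 4.69 against 10.4 CPM, the last on 2 UMIs. Clu, or clusterin, was called lower at -2.03 ± 1.13. Ucma, the Gla-rich matrix protein of upper cartilage, was at 2699.7 (2523 to 2886) CPM against 3407 (3335 to 3479.9) at 1 month, 2287 (2239 to 2336) against 1793 (1775 to 1810.1) at 1.5 months and 1273 (1168 to 1385) against 988 (963 to 1013) at 3 months, lower in the first and higher in both others. Pthlh stayed under the level filter, with 1, 3 and 0 UMIs in the cycling cells and 52, 89 and 6 in the non-cycling cells. These are raw UMIs from sums of unlike size. The cycling cells held 319668, 3690626 and 426512 UMIs in all and the non-cycling cells 2511341, 22645445 and 6033743.

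**Figure D3:**
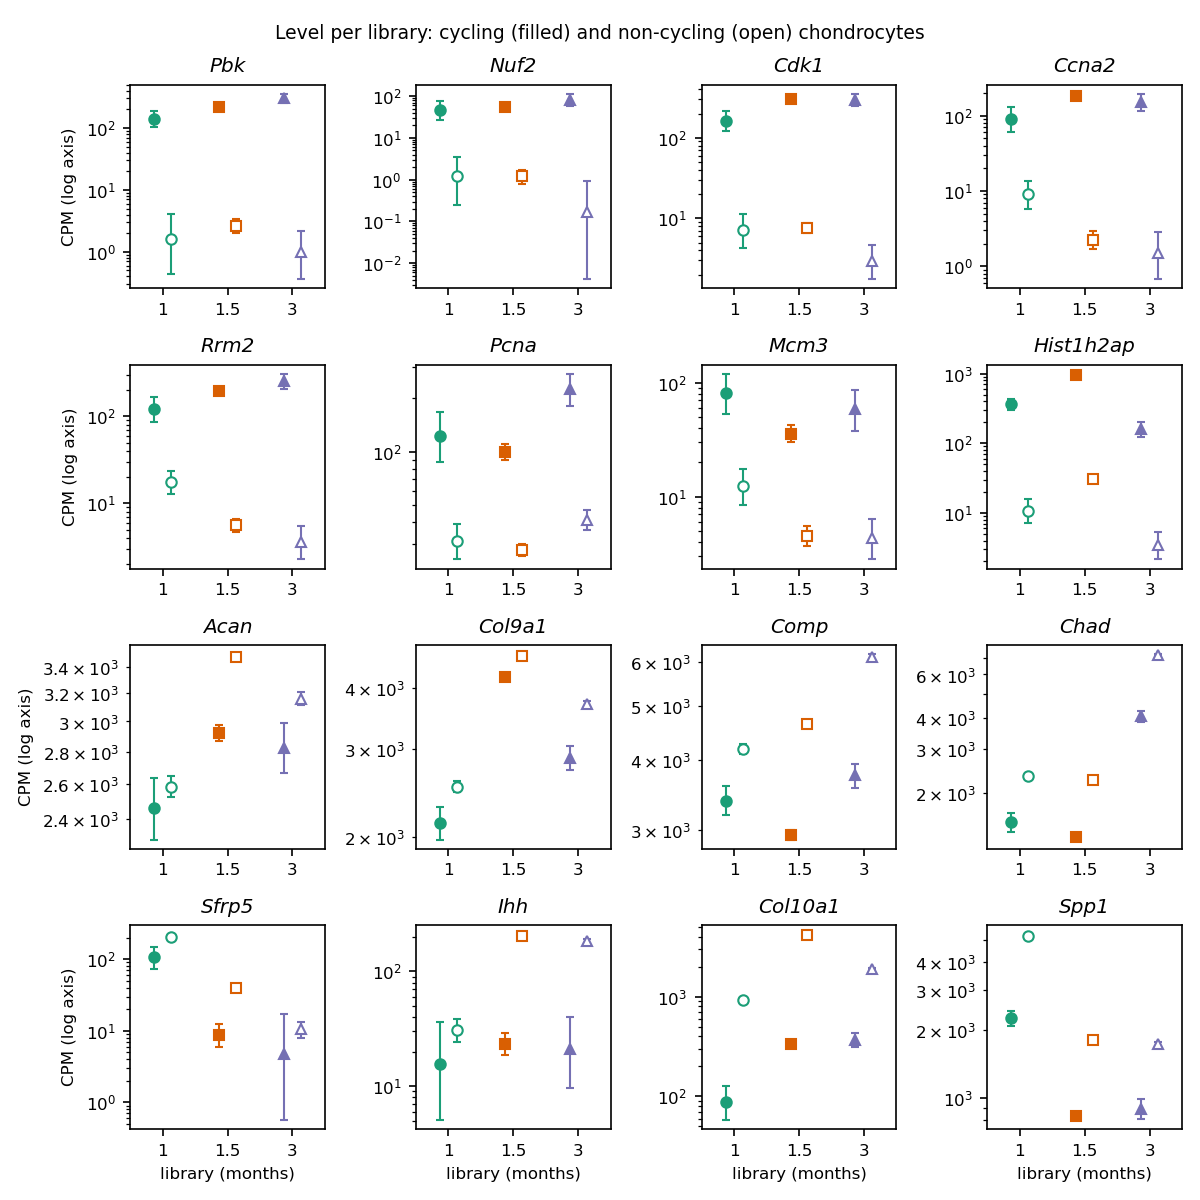
CPM of summed UMIs (vertical axes, log scale, each panel with its own range) of 16 genes in cycling (filled) and non-cycling (open) cells of each library (horizontal axis, age in months), with exact 95% Poisson intervals. The 8 cell cycle genes of the upper rows lie higher in cycling cells, while Acan differs by a mean log2 ratio of -0.16 and Ihh, Col10a1 and Spp1 lie lower in cycling cells, with overlapping intervals for Ihh at 1 month.

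The zone markers also divide the gate by cell. Gate cells were split into those with at least 10 Col10a1 UMIs per 10000, those with fewer and at least 10 Ucma UMIs per 10000, and those with neither. Among Ucma cells 5.41% (2.99 to 8.90) were cycling at 1 month, 13.4% (11.5 to 15.5) at 1.5 months and 5.06% (2.72 to 8.49) at 3 months. Among Col10a1 cells 0 of 16, 5 of 350 and 1 of 120 were cycling, or 1.43% (0.465 to 3.30) at 1.5 months and 0.833% (0.0211 to 4.56) at 3 months. For 0 of 16 the exact interval reaches 20.6%, and the limit of 3 counts that is set for a count of 0 is 18.8%. Of cells with neither, 4.76% (0.993 to 13.3), 7.85% (5.39 to 10.95) and 5.57% (3.52 to 8.31) were cycling.

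At 1.5 months the 3 intervals were separate and in the order Ucma, neither, Col10a1. With limits of 30 per 10000 in place of 10, Ucma cells were at 13.8% (10.6 to 17.6) and cells with neither at 11.1% (9.37 to 12.9), which overlap, while Col10a1 cells, at 0.702% (0.0851 to 2.51), lay below both. At 3 months the intervals of all 3 classes overlapped. Col10a1 cells had the highest median UMI count at 1.5 months, 18304 against 14600 in Ucma cells, so their low share stood beside greater depth. After thinning to 5000 UMIs, at least 1 UMI of Mki67 plus Top2a was held by 17.1% (14.97 to 19.4) of Ucma cells, 9.47% (6.72 to 12.9) of cells with neither and 3.16% (1.59 to 5.59) of Col10a1 cells at 1.5 months. The zones use the same cells as the contrast above, and restate it by cell. Of all cycling cells 82.4%, 81.5% and 36.1% were Ucma cells, against 76.6%, 61.4% and 33.3% of the gate. With limits of 30 per 10000 Ucma cells were 52.9%, 28.7% and 13.9% of cycling cells and 47.6%, 21.01% and 9.07% of the gate.

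**Figure D4:**
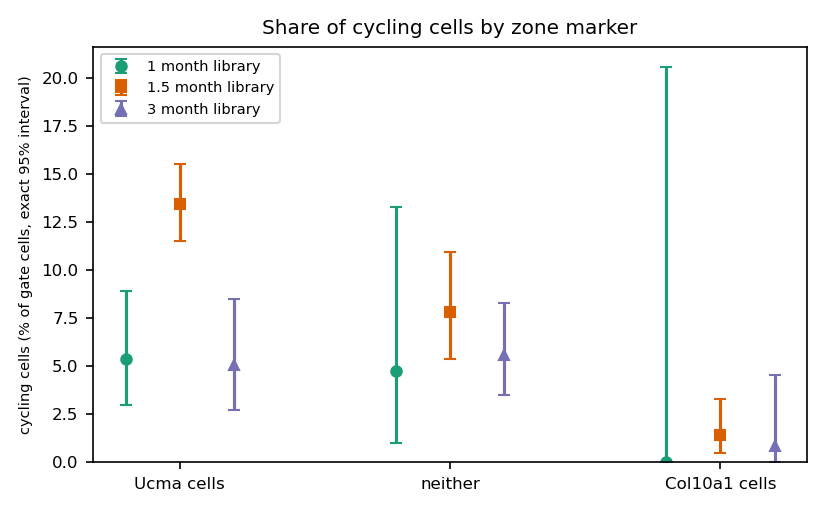
Share of cycling cells in percent (vertical axis) among gate cells with Ucma, with neither marker and with Col10a1, in the 1, 1.5 and 3 month libraries, with exact 95% binomial intervals. At 1.5 months the share goes from 13.4% in Ucma cells to 1.43% in Col10a1 cells, and the 1 month Col10a1 interval rests on 16 cells.

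Of 9 chondrocyte transcription factors counted 0 were called higher and 2 lower, Foxa3 at -1.20 ± 0.42 and Trps1 at -0.74 ± 0.18, beside 1.67% of all genes counted that were called lower. Sox5 and Sox6, partners of Sox9, were at 0.28 ± 0.19 and 0.01 ± 0.39, and Runx2 and Runx3 at -0.51 ± 0.14 and 0.47 ± 0.09. Among growth factor receptors and ligands 7 of 14 passed the filter and 1 was called lower, Fgfr1, at 62.6 against 119, 53.4 against 81.7 and 77.4 against 125 CPM. Fgfr3, the receptor that brakes growth plate division, was at -0.55 ± 0.44 and Igf1r at 0.37 ± 0.23. Of the hedgehog pathway 3 genes were counted and 0 called. Ptch1, receptor and target of the pathway, was at 53.2 against 64.5, 98.1 against 64.8 and 82.1 against 88.8 CPM.

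Secretory, glycolytic and stress genes lay near the median of all genes. Of 12 secretory chaperones 0 were called, at a median of -0.04, with Serpinh1, the collagen chaperone, at -0.03 ± 0.02. Of 10 glycolysis and hypoxia genes 1 was called lower, beside 1.67% of all genes counted. It was Aldoa, at 407 against 724, 349 against 619 and 183 against 325 CPM. Immediate early and heat shock genes, which mark stress in tissue digestion, were called in 0 of 10, at -0.08. The other genes among the 15 with the smallest ratios were Cryab, Rrad, Bmp2, Tnni2, Fxyd3, Cd200, Ptgis, Nog, Cystm1, Omd and Ak1, from -2.95 to -1.49. Cryab had 0 UMIs in the 17 cycling cells of 1 month and 5 in those of 3 months, so its ratio depends on the 0.5 UMIs added to each sum. Bmp2 and Nog, a ligand of bone morphogenetic protein signalling and its antagonist, were at -2.17 ± 1.11 and -1.75 ± 0.94, on 14 and 5 UMIs in cycling cells at 1 month.

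Cycling cells differed among themselves. The S phase and G2/M lists varied from 0.965 to 46.7 and from 8.63 to 186 UMIs per 10000 among the 195 cycling cells of 1.5 months, and their Spearman correlation across those cells was -0.50. It was -0.34 over the 36 cells of 3 months and 0.26 over the 17 cells of 1 month. Cells of a library share its depth and free RNA, so these values are descriptions. The median S phase level was 24.1, 16.3 and 25.4 UMIs per 10000 at 1, 1.5 and 3 months, against 5.26, 3.15 and 3.32 in non-cycling cells, and the median G2/M level was 41.6, 82.2 and 83.5 against 9.87, 6.65 and 6.32. The highest non-cycling cells reached 43.9, 118 and 36.03 UMIs per 10000 of the G2/M list, so 0 UMIs of the rule genes does not show that a cell is outside the cycle.

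**Figure D5:**
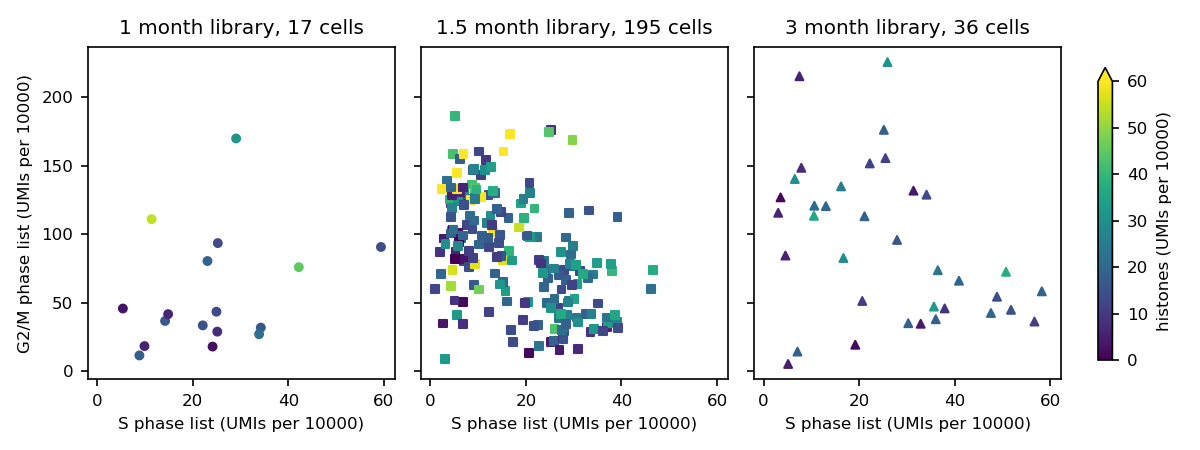
S phase list (horizontal axes) and G2/M phase list (vertical axes) in UMIs per 10000 for each cycling cell, with replication-dependent histones as colour, in the 17, 195 and 36 cycling cells of the 3 libraries. At 1.5 and 3 months cells high in one list tend to be low in the other, with Spearman correlations of -0.50 and -0.34.

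The share of S phase UMIs in the sum of both lists ordered the cycling cells of each library, and the tertile with the highest share (S-leaning) was set against the tertile with the lowest (G2/M-leaning), with 5, 65 and 12 cells in each. These are ranges of a score, and within 0.05 of the limits lay 4, 28 and 6 cells for the S-leaning and 3, 77 and 10 for the G2/M-leaning limit, counted on both sides of each limit. Genes of both lists made the score and are left out. Of 4640 other genes counted, 126 (2.72%) were 1.5-fold or more higher in S-leaning and 142 (3.06%) in G2/M-leaning cells in each library. The G2/M-leaning cells also had more of the rule genes, with medians of 11, 10 and 10.5 UMIs against 6, 8 and 5.

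Of 6 licensing genes counted 2 were called higher in S-leaning cells (Mcm3 and Mcm7), of 3 E2F and G2/M factors 1 (E2f1), and of 8 cyclins and kinases 2 (Ccnd1 and Cdk4), with 2 (Ccna2 and Ccnb1) called the other way. Ccnd1 was at 92.7, 69.5 and 81.96 CPM in S-leaning against 58.7, 27.8 and 27.4 in G2/M-leaning cells, and its partner Cdk4 at 309, 319.7 and 350.2 against 188, 154 and 68.6 CPM. The Ccnd1 values rest on 9 against 5 UMIs at 1 month and 11 against 4 at 3 months, where the intervals overlap, as do those of Cdk4 at 1 month. With the cells cut at the median score, Ccnd1 and Cdk4 were not called, and at 1 month Ccnd1 was at 63.03 against 69.2 CPM and Cdk4 at 277 against 284 CPM, the other way. These genes did not pass the call between cycling and non-cycling cells. As the log2 ratio of S-leaning over G2/M-leaning cells, E2f1 was at 3.25 ± 1.51, Dctpp1 at 2.54 ± 1.56, Dut at 1.26 ± 0.62, Mcm7 at 1.40 ± 0.92 and Mcm3 at 1.88 ± 1.47. At 1 and 3 months E2f1 rested on 8 and 10 UMIs in S-leaning and 2 and 0 in G2/M-leaning cells.

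G2/M-leaning cells had more Ccnb1, at 70.5, 223 and 302 against 10.3, 19.6 and 7.45 CPM, and more Ccna2, Plk1, Spc25, Kif20a, Kif4, Hmgn2, Rad21 and Bnip3, of which Ccnb1, Plk1, Kif20a and Rad21 were called with the cut at the median score as well. The inhibitors Cdkn2c and Cdkn1c were also higher there, under both cuts. Cdkn1c, lower in cycling than in non-cycling cells, was at 176 (98.6 to 291) CPM against 72.1 (28.99 to 149) at 1 month, 538 (498 to 581) against 195 (171 to 222) at 1.5 months and 665 (539 to 811) against 186 (121 to 275) at 3 months, a log2 ratio of -1.50 ± 0.29 for S-leaning over G2/M-leaning cells. At 3 months 62 of its 97 UMIs in G2/M-leaning cells came from 1 cell, and at 1.5 months 108 of 659.

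Replication-dependent histones were not higher in S-leaning cells as a list. Their summed level was 2268 (1959 to 2611) CPM in G2/M-leaning against 1318 (1099.8 to 1567) in S-leaning cells at 1 month, 2659.5 (2569 to 2752) against 2169 (2088 to 2254) at 1.5 months and 1728 (1521 to 1955) against 1416 (1222 to 1632) at 3 months, where the intervals overlap. Hist1h2ap was the other way at 1.5 months, with 1229 (1168 to 1293) CPM in S-leaning against 521 (481 to 563) in G2/M-leaning cells, and at 3 months, with 194 (127 to 284) against 61.7 (28.2 to 117). At 1 month it was at 175 (102 to 280.3) against 399 (277 to 558). Hist1h1b and Hist1h1e were also higher in S-leaning cells at 1.5 months, at 54.8 against 29.4 and 76.9 against 52.2 CPM. Both were higher in G2/M-leaning cells at 1 and 3 months. The list sum also holds Hist1h1c, with 1623 UMIs in cycling cells at 1.5 months, which was not called between cycling and non-cycling cells. Hist3h2a and the variant H1f0 were called higher in G2/M-leaning cells, H1f0 not with the cut at the median score. Of 6 cartilage collagens and 14 matrix proteins 0 were called either way, with medians of -0.03 and -0.09.

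Between ages, cycling cells were compared as sums of 1 library each. Of 4749 genes counted, 84 (1.77%) were 2-fold or more above both other libraries at 3 months and 126 (2.65%) below both. At 1 month the numbers were 167 and 203, and at 1.5 months, with the most cells, 33 and 94. Of the 84 and 126 genes of 3 months, 36 and 38 met the same rule in non-cycling cells. The largest ratios belonged to Serpina1a, Serpina1d, Krtap17-1, Mgst2 and Serpina1b. Serpina1a, of a family of close copies of the antitrypsin gene among which reads can be split, was at 1079 (982 to 1182) CPM in cycling cells at 3 months, against 43.8 (23.9 to 73.5) at 1 month and 40.1 (33.9 to 47.1) at 1.5 months. In non-cycling cells it was at 49.4, 32.4 and 869 CPM at 1, 1.5 and 3 months. All 60 Krtap17-1 UMIs of 3 months came from 1 cell, and for Serpina1b 386 of 641 UMIs came from 1 cell.

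The smallest ratios at 3 months were those of Igf2, Rbp4, Sox11, Adipoq and Aspn. Igf2, a growth factor of young tissue, was at 100.1 (68.5 to 141) CPM, 5.69 (3.52 to 8.70) and 0 (0 to 8.65) in cycling cells at 1, 1.5 and 3 months, and at 51.4, 6.93 and 2.65 CPM in non-cycling cells. At 1 month 17 of 32 UMIs came from 1 cell. Rbp4, a retinol carrier, was at 422, 15.2 and 4.69 CPM in cycling and 584, 81.1 and 18.9 CPM in non-cycling cells. Sox11, a transcription factor of progenitor cells, was at 50.1, 27.6 and 0 CPM in cycling and 5.97, 9.71 and 1.33 CPM in non-cycling cells. Adipoq, an adipocyte hormone, had 1, 241 and 0 UMIs in cycling cells, so it could not be told apart between 1 and 3 months, and its non-cycling level was 5.57, 64.9 and 5.30 CPM. Of the Aspn UMIs at 1 month 33 of 38 came from 1 cell.

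Of 31 S phase and 48 G2/M genes counted in cycling cells, 1 and 0 were above and 1 and 0 below both other libraries at 3 months (Mcm4 above and E2f8 below), beside 1.77% and 2.65% of all genes, so that the S phase shares lie near the background. Their median log2 ratios were 0.24 and 0.44 over the mean of the others, against -0.41 and -0.78 in non-cycling cells. Of 11 licensing genes 2 were above, Cdt1 and Mcm4, and 0 below. The 6 cartilage collagens had 0 in either direction, and the 14 matrix proteins 1 above and 0 below.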

How the data were processed

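Cells of Td+ endosteal bone marrow from mice of 4 ages were measured by 10x Chromium V3 single-cell RNA sequencing, with 1 library per age. The deposited tables hold UMI counts per gene and cell, which the authors made with Cell Ranger 3.0.2 on mm10 with the reporter added as a gene (the submitters' processing notes also name Seurat 2). The tables of 1, 1.5 and 3 months list the same 27999 genes. Totals per library were 108227184, 63258961 and 32672631 UMIs. The cycling cells summed to 319668, 3690626 and 426512 UMIs, so the 1 and 3 month values are the less precise. No normalized values were used.

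Cells were chosen by the rule given in the report, and the members, the gene lists and the comparisons were chosen with earlier results of these data known. Doublets were not called. The upper limit of 6000 genes and the gate limits on Ptprc, Col1a1, Cxcl12 and Col2a1 could remove some of them. UMIs were summed per library and group, scaled to CPM, and compared as log2 ratios with 0.5 UMIs added to each sum. Genes named are the members of the lists and markers, the 15 with the largest and the 15 with the smallest mean ratio among called genes with at least 50 CPM in the higher group, and 10 genes in the comparison of ages. Poisson and Clopper-Pearson intervals are at 95%. No library has a replicate, so no test was run. The script for the contrast was tested on simulated data. Alternatives changed the limits of the rule, the level filter, the added UMIs, the weighting of cells and the libraries used. Leaving out cells with blood markers over 3 times the library median was chosen after seeing the data. Gene positions are from GENCODE M21 (GRCm38) and promoters from RefSeq (GRCm38.p6). The 16 month library was read for the gate alone. Python 3.11.15, numpy 2.4.6, scipy 1.17.1, pandas 2.3.3 and matplotlib 3.10.9 were used. The values of 1 list member are not reported here.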

Additional observations from a re-analysis of the deposited data

Results flagged for a closer look

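Of 211 list members and markers counted, 20 had a log2 ratio of cycling over non-cycling cells whose counting interval excluded 0 upward in 1 library and downward in another. The difference between libraries was not tested, since each age is 1 library, and the intervals cover counting error only. Values are the highest minus the lowest of the 3 log2 ratios.

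The widest gaps were in blood genes. The hemoglobin genes Hbb-bs, Hba-a2, Hba-a1 and Hbb-bt differed by 5.06, 4.79, 4.75 and 4.61, high in cycling cells at 1 month. Hbb-bs was at 3.65, -0.96 and -1.41 at 1, 1.5 and 3 months, and at 0.12, -0.03 and -0.43 without the cells over 3 times the library median of blood markers. The neutrophil genes Ltf, S100a8 and S100a9 differed by 3.48, 2.72 and 2.59, high in cycling cells at 1.5 and 3 months, and S100a8 went from -0.16, 2.57 and 2.27 to -0.13, 0.05 and -0.18 without those cells.

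Among bone and cartilage genes Mmp13 differed by 4.94, the osteocalcin genes Bglap2 and Bglap by 1.72 and 1.66, Ucma by 0.70 and Matn3 by 0.65. Ucma was at -0.33, 0.35 and 0.37 with all cells and at -0.19, 0.36 and 0.51 without the cells rich in blood markers, and Bglap2 was at 0.68, -0.35 and -1.04 and 0.54, -0.37 and -0.91. The Bglap genes are close copies among which reads can be split.

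Immediate early genes Atf3, Fos and Junb differed by 1.81, 1.10 and 0.68, with Fos at -0.86, 0.25 and -0.25. Genes of glycolysis and hypoxia, Bnip3, Pkm, Eno1 and Ldha, differed by 1.21, 0.67, 0.67 and 0.58, each lowest at 1 month, and the linker histone Hist1h1c by 0.75.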

How the results depend on the processing

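Of 341 values of list medians under the alternatives 290 moved by less than the spread between libraries and 51 moved further. None of the 8 main lists changed sign under its alternatives. The medians of glycolysis genes changed sign under 6, of hedgehog genes and secretory chaperones under 2 each, and of immediate early genes and chondrocyte transcription factors under 1 each, the last between -0.74 and 0.23.

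The number of genes called higher was 763 with a level filter of 5 CPM and 78 with 100 CPM, and 341 to 508 with each library left out. Genes called lower numbered 146 and 26 at those filters, 28 with 5 UMIs added to each sum, 171 without cells over 1% blood markers, and 104 to 168 with each library left out, with 168 and 154 when the 1 month or the 1.5 month library was left out. The 1% limit removed every gate cell of 1 month, so it ran on 2 libraries, which makes a call easier, as does leaving out a library. At 100 CPM the medians were 1.72 (S phase), 3.28 (G2/M) and 0.11 (replication-dependent histones). The histone median was 1.60 with cells of 2 UMIs included and 1.50 without cells over 1% blood markers. With each library left out it was 1.47 to 1.83, and that of the S phase list 2.33 to 3.02.

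Matrix proteins stood at -0.21 with non-cycling cells weighted to the depth of cycling cells, -0.13 and -0.094 without cells over the 1% and the 3-fold blood limits, and -0.14 as means over cells. The hypertrophic median was -1.85 without cells over 1% blood markers and -1.75 to -1.18 with each library left out. The resting zone median, on 3 genes, was -1.20 at 5 UMIs, -1.08 at 3 per 10000 UMIs, -0.60 with weighting, -1.39 with no upper limit on genes, -0.50 without cells over 1% blood markers, -0.73 with 5 UMIs added, -1.18 and -0.95 at 5 and 100 CPM, -1.48 as means over cells and -0.91 to -0.53 with each library left out. The cause of these shifts was not tested.

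Thinned to 5000 UMIs, the share of gate cells at 1 or more UMIs was 18.6%, 13.1% and 8.68%, and at 3 or more UMIs 2.37%, 5.16% and 3.17%. At 1 or more UMIs it was 20.5%, 17.1% and 8.75% in Ucma cells, and 20.6% and 9.60% at 1 and 3 months in cells with neither marker. With zone limits of 30 per 10000, 11.1% of the cells with neither marker were cycling at 1.5 months, and the interval of Ucma cells then overlapped theirs.

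Cut at the median score and not at tertiles, histones stood at 1745 and 2568 CPM in G2/M-leaning cells at 1 and 1.5 months. S-leaning cells of 1.5 months stood at 2260.1 CPM. At 3 months S-leaning cells were at 1652 (1484 to 1834) CPM and G2/M-leaning cells at 1626 (1459 to 1806) CPM. These intervals overlap, so the groups of 3 months could not be told apart. That cut gave 84 genes higher in G2/M-leaning cells, 64 of them among the 142, and 91 in S-leaning cells, 60 of them among the 126. At 1.5-fold and not 2-fold, genes above and below both other ages numbered 515 and 525 at 1 month, 139 and 286 at 1.5 months and 317 and 374 at 3 months. Ratios set cycling against non-cycling cells of the same library. Values at 1 and 3 months rest on 17 and 36 cycling cells, where a single cell held most UMIs of some genes.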
